A study of Mus musculus with 4 samples.

Results

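The Cyp2d family of mouse liver cytochrome P450 genes is described here across both sexes and both treatments of a study of aristolochic acid I (AAI), a plant nephrotoxin. Its members were taken by gene name, as every array probe that is no control and is annotated to Cyp2d9, Cyp2d10, Cyp2d11, Cyp2d12, Cyp2d13, Cyp2d22, Cyp2d26, Cyp2d34 or Cyp2d40. They are 9 of 37021 gene names and 12 of 56605 probes on the array. The family was chosen by its log2 ratios between these arrays, which were known beforehand, so those ratios are given as a description, with no test. Liver RNA was measured on 4 single-colour Agilent microarrays, 1 per group. AAI was given at 5 mg/kg/day to females and at 2 mg/kg/day to males, and corn oil, its vehicle, to a further group of each sex. The 4 groups are called AAI females, AAI males, vehicle females and vehicle males. All were C57BL/6 wild-type mice of 6 weeks, injected i.p. on 5 days a week for 3 weeks, and RNA from the livers of 5 mice was pooled for each array. Sex and AAI dose cannot be told apart in the AAI pools, since males were given the lower dose.

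Cytochromes P450 are heme enzymes of the endoplasmic reticulum that oxidize drugs, toxins and steroids, and the Cyp2d genes lie side by side on mouse chromosome 15. Cyp2d9 encodes a testosterone hydroxylase and is a classical example of a gene expressed more strongly in male than in female mouse liver. Many sex-biased liver P450 genes follow the pattern of growth hormone secretion, which is pulsatile in males and more continuous in females, and which acts through the receptor Ghr and the transcription factor Stat5b. Humans have a single functional gene of this family, CYP2D6, which oxidizes many common drugs, and Cyp2d22 is regarded as its closest mouse counterpart.

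All values are log2 signals after quantile normalization of the 4 arrays, which gives every array the same distribution of values. A ratio is a difference of 2 such signals, and a ratio of 1 or more in size is a change of at least 2-fold. Replicate error cannot be given, since each group had 1 array. The scanner's error model gave 0.14 to 0.19 per log2 signal of a Cyp2d probe and 0.20 to 0.26 per ratio. Between different probes for the same gene, over all genes with 2 or more probes, the median SD of the ratio was 0.25 in females and 0.24 in males. These errors are technical and do not cover differences between mice. All 12 Cyp2d probes were well above background on all 4 arrays and none was saturated or marked as an outlier. Across the arrays, 74.7% to 81.5% of all probes were well above background, and the median processed intensity was 110 to 129. The arrays were of liver by their hepatocyte markers, of which 7 of 8 were on the array by name. Alb, the albumin gene, had log2 signals of 19.12 in both female pools, 19.12 in vehicle males and 19.15 in AAI males.

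Each probe has 60 bases. The probes of Cyp2d9 and Cyp2d34 are shown because these 2 genes had the largest ratios of the family and because near-identical paralogs can share signal. The Cyp2d9 probe (NM_010006, transcript base 828 to 887) lies at chr15:82285582-82285641 on the plus strand of mouse genome build mm9, and the Cyp2d34 probe (NM_145474, from transcript base 762) at chr15:82447966-82448025 on the minus strand. Capitals mark the longest run of bases that both probes hold, 17 bases, at the start of the first and near the end of the second.
Cyp2d9 probe: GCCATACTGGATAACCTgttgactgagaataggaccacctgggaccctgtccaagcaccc
Cyp2d34 probe: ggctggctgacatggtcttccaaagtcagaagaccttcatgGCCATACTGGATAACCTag
It was the longest run in any of the 78 pairs among 13 Cyp2d probes, which were those of the 9 members and that of the pseudogene Cyp2d37-ps. The next longest was 11 bases, between the probes of Cyp2d10 (NM_010005, chr15:82233388-82233447, minus strand) and Cyp2d11 (NM_001104531, chr15:82219647-82219706, minus strand), shown with that run in capitals. Placed over each other, these probes match at 36 of 49 bases. No other pair shared more than 9 bases in a row. Probes were compared only with each other and not with the transcripts of other members, so shared signal was not tested.
Cyp2d10 probe: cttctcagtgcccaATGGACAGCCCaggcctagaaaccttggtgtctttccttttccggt
Cyp2d11 probe: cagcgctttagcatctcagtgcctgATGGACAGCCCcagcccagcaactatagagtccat

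Cyp2d9 had a log2 signal of 11.75 in vehicle females, 12.01 in AAI females, 14.77 in vehicle males and 12.45 in AAI males. As processed intensity before normalization these were 3380, 4142, 27481 and 5360. The vehicle male pool stood far above the other 3. AAI males were 5.01-fold lower than vehicle males, a log2 ratio of -2.32 against a scanner error of 0.20. In females the ratio of AAI to corn oil was 0.26, slightly above its scanner error of 0.20 and the median SD between probes of 0.25, and it ran from 0.18 to 0.50 across the settings tried. The 2 female pools were the lowest, and AAI males lay 0.44 above AAI females.

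Cyp2d34, a further P450 gene of the cluster, had the lowest intensities of its 4 pools in females. Its log2 signal was 6.12 in vehicle females, 7.17 in AAI females, 10.32 in vehicle males and 7.94 in AAI males, from processed intensities of 64.5, 154, 1363 and 236. All 4 pools were apart by more than the scanner error of a ratio. AAI males were 5.18-fold lower than vehicle males (log2 ratio -2.37), and AAI females were 2.08-fold higher than vehicle females (log2 ratio 1.06). The increase in females depended on how background was removed, since the log2 ratio was 0.53 after normexp correction and 0.98 with the background-subtracted signal. On the array of AAI females, 93.7% of spots had a processed signal equal to the background-subtracted signal, against 6.66% to 13.3% on the other arrays, so the correction of trends across the slide was not the same on all arrays.

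Cyp2d11 was bright in every pool, with log2 signals of 16.12 in vehicle females, 16.08 in AAI females, 17.32 in vehicle males and 16.06 in AAI males. Vehicle males were the high pool here too, and the other 3 did not differ beyond the scanner error. The ratio in males was -1.26, 2.40-fold lower with AAI, and that in females -0.04. The female value changed sign with the scaling and background settings, between -0.04 and 0.20.

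Cyp2d40 (NM_023623, chr15:82590288-82590347, minus strand) was the only member at least 2-fold lower in AAI males that was not also at least 2-fold higher in vehicle males than in vehicle females. Its log2 signals were 14.22 in vehicle females, 13.70 in AAI females, 14.36 in vehicle males and 13.14 in AAI males. The 2 vehicle pools were alike within the scanner error, and both AAI pools lay below them. The log2 ratio was -0.52 in females and -1.22 in males, 2.33-fold lower. A further Cyp2d40 probe (AK004984, chr15:82590878-82590937) was much dimmer and went the other way, with log2 signals of 6.40, 6.58, 5.83 and 6.73 in the same order and ratios of 0.18 in females and 0.89 in males. With both probes averaged, the Cyp2d40 ratio in males was -0.16 and no longer past 2-fold.

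Cyp2d12 (NM_201360) had processed intensities of 22100 in vehicle females, 29232 in AAI females, 31522 in vehicle males and 19900 in AAI males. Its probe spans 243 bases of the genome, chr15:82388259-82388501, and so reads across an intron of the spliced transcript. After normalization the log2 ratio was 0.36 in females and -0.67 in males, neither past 2-fold, and vehicle males were again the highest pool.
Cyp2d13, whose reference transcript is noncoding (NR_003552, chr15:82469006-82469065, minus strand), had log2 signals of 9.40, 9.33, 9.58 and 9.07 in vehicle females, AAI females, vehicle males and AAI males. Its further probe (AK004933) gave 8.73, 8.28, 9.11 and 8.42. Both probes were highest in vehicle males, with ratios of -0.51 and -0.69 in males and of -0.07 and -0.46 in females.

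Cyp2d10 had log2 signals of 16.78 and 16.66 in vehicle and AAI females and of 16.89 and 16.58 in vehicle and AAI males. Its ratio of -0.12 in females was within the scanner error of 0.20. That of -0.30 in males was beyond it and beyond the median SD between probes of 0.24, and well short of 2-fold. Across the settings tried the female value ran from -0.12 to 0.09 and the male value from -0.31 to -0.14. Cyp2d22 (NM_001163472, chr15:82201687-82201746, minus strand) was the only member higher with AAI in both sexes beyond the scanner error. It had log2 signals of 9.58 and 10.31 in vehicle and AAI females, a ratio of 0.73 or 1.66-fold. In males the signals were 9.38 and 9.89, a ratio of 0.51, so that neither sex passed 2-fold.
Cyp2d26 (NM_029562) was read by 2 probes of the same transcript that did not behave alike. The brighter probe, at chr15:82620575-82620634, had log2 signals of 17.32, 17.36, 17.13 and 17.26 in vehicle females, AAI females, vehicle males and AAI males. The second probe, at chr15:82621770-82621829, had 15.22, 15.44, 15.91 and 15.11, and so was highest in vehicle males. In males the ratio was 0.13 with the brighter probe and -0.80 with the second, a gap wider than the errors of both ratios together. Across the settings tried the gene's value in males ran from -0.34 to 0.32, so it had no settled direction.

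**Figure D1:**
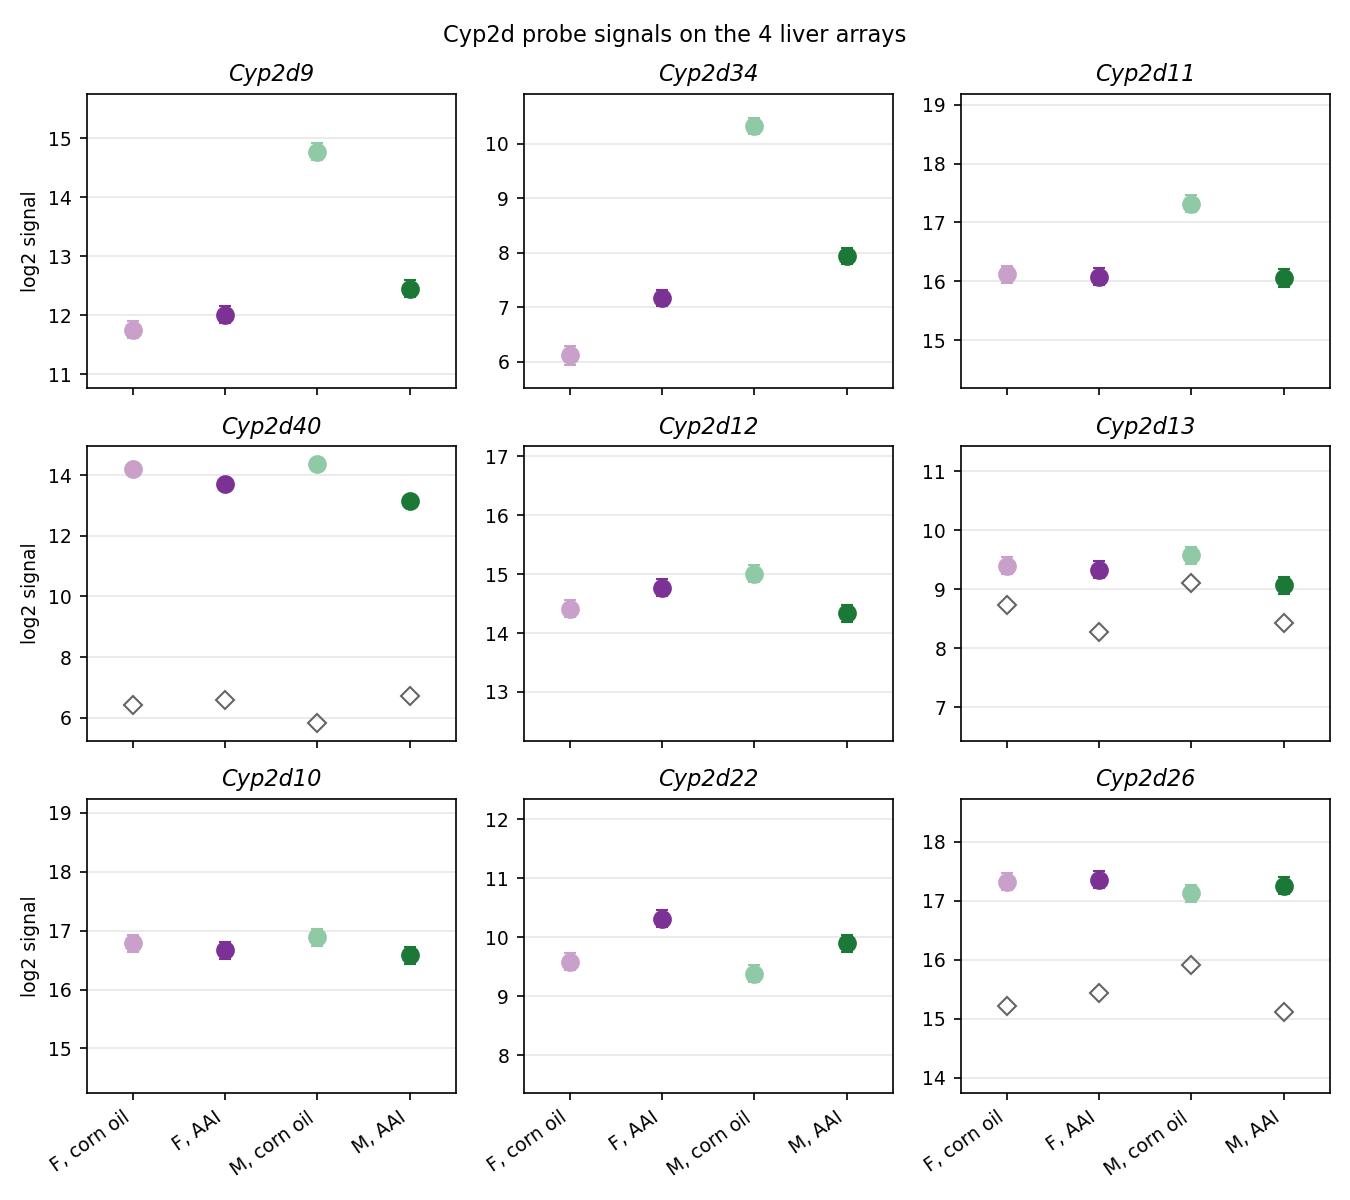
Log2 signal (vertical axis, quantile normalized) of each Cyp2d gene in the 4 liver pools (F, female; M, male; 1 array each); every panel has its own scale. Filled circles are the brightest probe of a gene with the scanner's error estimate as bars, and open diamonds are a further probe of the same gene; Cyp2d9, Cyp2d34 and Cyp2d11 are highest in vehicle males (M, corn oil), at 14.77, 10.32 and 17.32.

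Set side by side, the ratios of AAI to corn oil were lower in males than in females for most members. In males, 4 of 9 Cyp2d genes were at least 2-fold lower with AAI, namely Cyp2d34, Cyp2d9, Cyp2d11 and Cyp2d40, and none was at least 2-fold higher. The share of all 30539 genes tested in males was 4.59% for the lower and 3.51% for the higher direction. In females 1 of 9, Cyp2d34, was at least 2-fold higher and none was at least 2-fold lower, against 1.37% higher and 3.09% lower of 31682 genes. The median ratio of the 9 genes was -0.67 in males and 0.03 in females. Over all genes above background on both arrays it was 0.02 in males and 0.04 in females. The family was picked with these ratios known, so the counts describe it and test nothing. On the same arrays, 8 of 8 skeletal muscle markers were at least 2-fold higher with AAI in each sex, and 5 of 5 adrenal cortex markers in males, with summed levels given further on, and their part in these ratios was not tested.

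From the lowest ratio upwards, Cyp2d34 ranked 116 and Cyp2d9 ranked 124 among 28433 genes above background on both male arrays. Cyp2d11 ranked 734 and Cyp2d40 ranked 804 in the same order, and Cyp2d12, the next member, 2394. In females Cyp2d34 ranked 271 from the top of 29714 genes and Cyp2d22 ranked 1060. The male ratio was below the female ratio in 8 of 9 genes by their brightest probes, the exception being Cyp2d26 with a difference of 0.10, which is within its error of 0.29. The second Cyp2d26 probe had a difference of -1.01. The difference of the ratios, males minus females, was -3.43 for Cyp2d34, -2.58 for Cyp2d9, -1.22 for Cyp2d11 and -1.02 for Cyp2d12. For Cyp2d40 it was -0.70 with the brighter probe and 0.72 with the dim probe. For Cyp2d10 and Cyp2d22 it was -0.18 and -0.22, within the scanner error of 0.29. No difference between the sexes could be tested with 1 array per group.

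**Figure D2:**
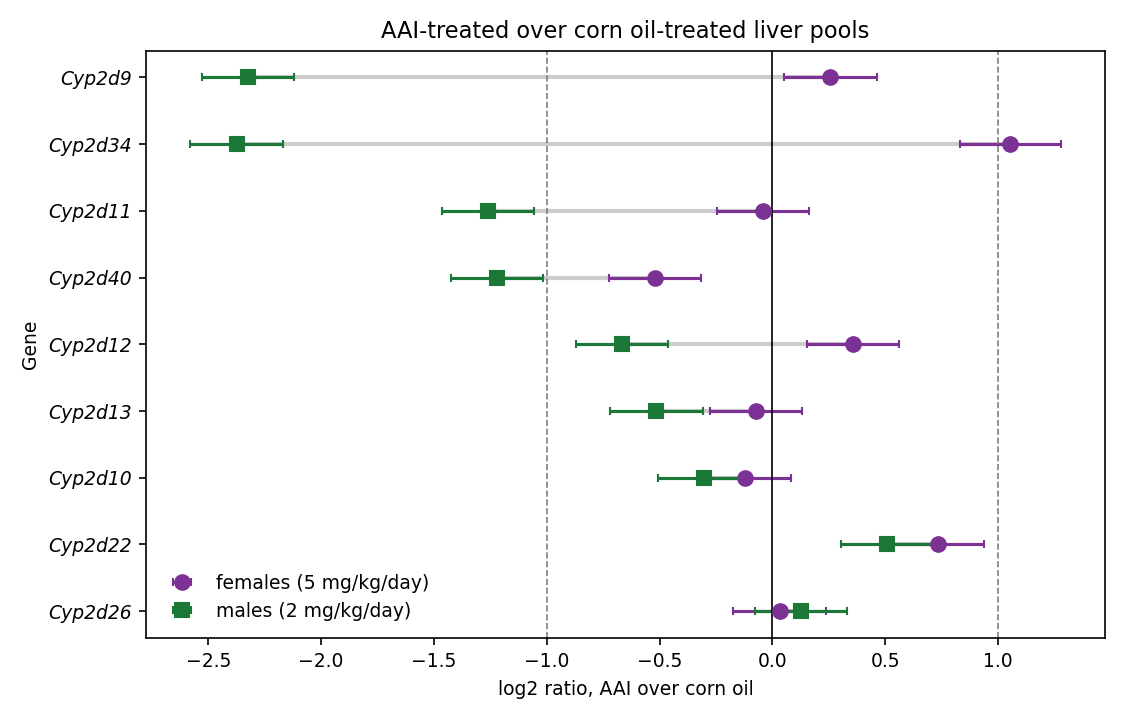
Log2 ratio of AAI-treated to corn oil-treated liver pools (horizontal axis) for the brightest probe of each Cyp2d gene in females (circles) and males (squares), with the scanner error of the ratio as bars and dashed lines at 2-fold. The male squares of Cyp2d9 and Cyp2d34 lie at -2.32 and -2.37, while those of Cyp2d22 and Cyp2d26 lie at 0.51 and 0.13.

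The same 4 arrays give the ratio of males to females. This comparison shares the vehicle arrays with the ratios above, so a high signal on the male corn oil array raises the one and lowers the other. Under corn oil, 3 of 9 members were at least 2-fold higher in males, against 3.83% of 30891 genes, and none was at least 2-fold lower, against 1.86%. Cyp2d34 was 18.3-fold higher in males (log2 ratio 4.20), Cyp2d9 was 8.10-fold higher (3.02) and Cyp2d11 was 2.29-fold higher (1.20). With arrays scaled to their 75th percentile the Cyp2d11 value was 0.96, just under 2-fold. Cyp2d12 followed at 0.60, or 0.30 with that scaling, and the other 5 genes lay between -0.20 and 0.18 by their brightest probes. The further probes of Cyp2d26, Cyp2d13 and Cyp2d40 had 0.68, 0.38 and -0.57. From the top of 29111 genes, Cyp2d34 ranked 12 and Cyp2d9 ranked 46.

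Between the AAI pools, 0 of 9 members differed by 2-fold or more in either direction, against 3.25% of 31494 genes higher and 1.17% lower in males. No test across replicates was possible for this count. The ratio of males to females was 0.77 for Cyp2d34, 0.44 for Cyp2d9 and -0.02 for Cyp2d11. By their brightest probes the remaining members lay between -0.55 and -0.08. The further probes of Cyp2d26, Cyp2d13 and Cyp2d40 had -0.33, 0.14 and 0.15. The median of the 9 members was 0.18 under corn oil and -0.10 under AAI, beside -0.02 and -0.04 over all genes.

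**Figure D3:**
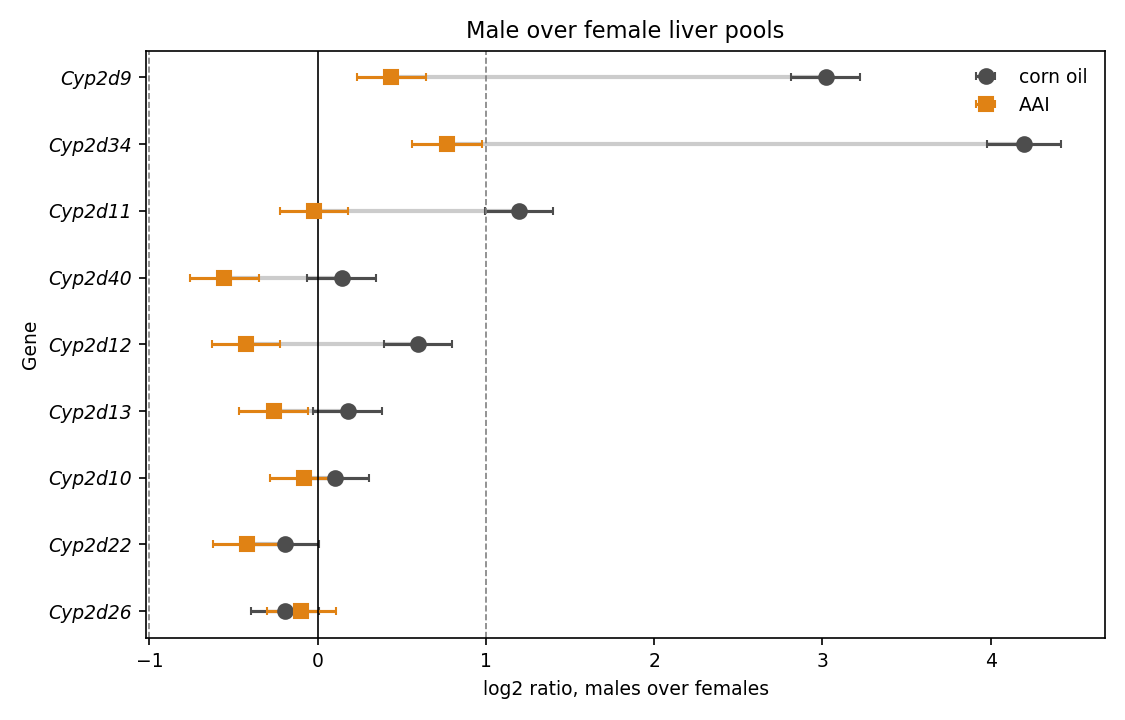
Log2 ratio of male to female liver pools (horizontal axis) for the brightest probe of each Cyp2d gene under corn oil (circles) and under AAI (squares, males at 2 and females at 5 mg/kg/day), with scanner error as bars and dashed lines at 2-fold. Cyp2d34 lies at 4.20 under corn oil and at 0.77 under AAI, and Cyp2d9 at 3.02 and 0.44.

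Other P450 families of liver served as a comparison. None of 4 Cyp2a genes, which hydroxylate coumarin and steroids, was past 2-fold in any of the 4 comparisons, with a median ratio of AAI to corn oil of 0.78 in males and 0.40 in females. Of 15 Cyp2c genes, a family that oxidizes fatty acids and drugs, 1 was at least 2-fold lower with AAI in males and none in females, with medians of -0.07 and 0.24. Cyp2b genes, which include classical targets of phenobarbital, ran opposite to Cyp2d9. Of 4 tested Cyp2b genes, 3 were at least 2-fold higher with AAI in males, and 3 were at least 2-fold lower in males than in females under corn oil. Of 48 tested Cyp1, Cyp2 and Cyp3 genes outside the Cyp2d family, 3 had lower and 6 had higher signals by 2-fold or more with AAI in males, and 0 were at least 2-fold higher in males than in females under corn oil, beside 11 that were lower. No test was made of these counts. Among the Cyp1, Cyp2 and Cyp3 genes tested, those at least 2-fold higher in vehicle males than in females were the 3 Cyp2d genes. Of all genes, 3.83% were higher and 1.86% lower in that comparison. Cyp2d11 was at 0.96 with arrays scaled to their 75th percentile, and the family had been chosen by its ratios.

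The probes of the family lie within 420143 bases of chromosome 15, chr15:82201687-82621829 in build mm9. In rising order of position they are Cyp2d22, Cyp2d11, Cyp2d10, Cyp2d9, Cyp2d12, Cyp2d34, Cyp2d13, Cyp2d40 and Cyp2d26. The members at least 2-fold lower with AAI in males were not next to each other, but the Cyp2d genes between them also had negative ratios. Cyp2d10, with -0.30, sits between Cyp2d11 and Cyp2d9, and Cyp2d12 and Cyp2d13, with -0.67 and -0.51, sit on either side of Cyp2d34. Cyp2d37-ps, a pseudogene inside the interval, had log2 signals of 11.15, 11.14, 11.76 and 10.93 in vehicle females, AAI females, vehicle males and AAI males, a ratio of -0.83 in males. A transcript without a gene symbol beside it had -0.76 in males.
The 7 neighbouring genes reported here, beside the cluster on either side, had ratios between -0.28 and 0.16 in males and between -0.28 and 0.69 in females.

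**Figure D4:**
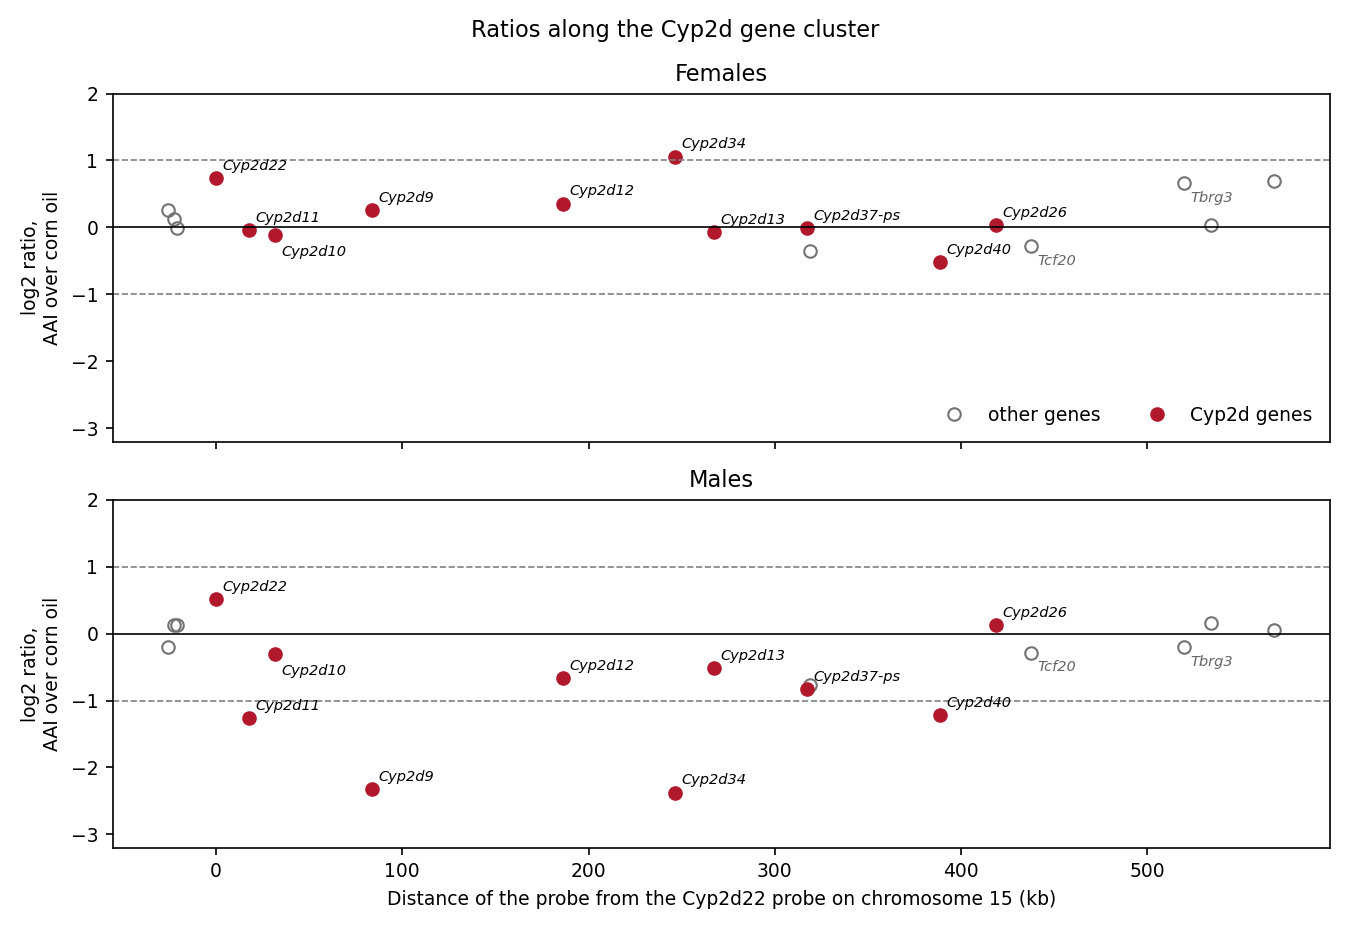
Log2 ratio of AAI to corn oil (vertical axis) in females (upper panel) and males (lower panel) against the distance of each probe from the Cyp2d22 probe in kb. Filled circles are Cyp2d genes, with the pseudogene Cyp2d37-ps, open circles are other genes inside or beside the cluster, and dashed lines mark 2-fold; in males Cyp2d9 and Cyp2d34 are lowest, with Cyp2d12 (-0.67) between them.

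The RefSeq promoter table (build GRCm38.p6) held 5 of the 9 members, Cyp2d9, Cyp2d10, Cyp2d11, Cyp2d26 and Cyp2d40. The stretches of 150 bases before the start are shown for 4 of them, because Cyp2d9, Cyp2d11 and Cyp2d10 are close in sequence and yet had ratios of -2.32, -1.26 and -0.30 in males. Capitals mark the 12 bases GGACAAAGGGCA, a direct repeat of the kind that the liver factor Hnf4a can bind, taken from the Cyp2d9 promoter, and TTCCGG, the core of sites for ETS factors. The letters searched were chosen after the promoters had been read.
Cyp2d9, chr15:82452227-82452376, plus strand: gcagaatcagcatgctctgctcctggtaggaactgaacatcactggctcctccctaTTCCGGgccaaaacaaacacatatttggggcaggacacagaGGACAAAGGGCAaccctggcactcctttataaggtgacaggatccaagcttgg
Cyp2d10, chr15:82407195-82407344, minus strand: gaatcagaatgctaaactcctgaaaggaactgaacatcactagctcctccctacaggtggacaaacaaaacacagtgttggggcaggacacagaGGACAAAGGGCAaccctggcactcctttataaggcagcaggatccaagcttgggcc
Cyp2d11, chr15:82394023-82394172, minus strand: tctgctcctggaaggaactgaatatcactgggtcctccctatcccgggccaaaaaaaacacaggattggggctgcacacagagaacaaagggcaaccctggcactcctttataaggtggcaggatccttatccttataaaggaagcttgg
Cyp2d40, chr15:82764123-82764272, minus strand: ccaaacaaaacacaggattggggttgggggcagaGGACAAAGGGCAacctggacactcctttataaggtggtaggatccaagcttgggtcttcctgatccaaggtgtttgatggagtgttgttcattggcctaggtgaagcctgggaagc
Both strands of the 250 bases before the start were searched, and only exact matches were counted. GGACAAAGGGCA was found in 3 of the 5 promoters, at -53 to -42 in Cyp2d9, -56 to -45 in Cyp2d10 and -116 to -105 in Cyp2d40, and in 8 (0.0244%) of all 32851 promoters of this length. Cyp2d11 holds gaacaaagggca, which differs from the repeat by a single base and was not counted. TTCCGG was found only in Cyp2d9, at -94 to -89, and in 12.0% of all promoters. TTCNNNGAA, the letters of Stat5 sites, was in none of the 5, and in 7.02% of all promoters. TATAAG was in all 5, and in 6.65% of all promoters; its match in Cyp2d9 lies at -26 to -21. Over 250 bases, Cyp2d9 was 82.8% identical to Cyp2d10 and 82.3% to Cyp2d11. Cyp2d10 and Cyp2d11 were 76.7% identical, and the other 7 pairs 44.7% to 56.5%. In Cyp2d40 the TATAAG match lies at -89 to -84, further from the annotated start than in Cyp2d9, as does its repeat. The windows were placed by annotated starts and not shifted, so the identities of Cyp2d40 do not show how alike its promoter is once moved. The log2 ratios of males to females under corn oil were 3.02 for Cyp2d9, 0.10 for Cyp2d10 and 1.20 for Cyp2d11. Any part of these letters in those ratios was not tested. These matches describe letters, and binding was not measured.

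P450 enzymes draw electrons from a small set of partners. Por, the reductase that serves all microsomal P450 enzymes, had ratios of 0.31 in females and 0.50 in males. Cyb5a, Cyb5b and Cyb5r3, of the cytochrome b5 route, lay between -0.21 and 0.05 in females and between -0.47 and 0.00 in males, so 0 of 4 partners were past 2-fold in either sex.
Next came 17 regulators with a known role for Cyp2d or sex-biased liver P450 genes. With AAI in males none was at least 2-fold lower, against 4.59% of all genes, and 1 was at least 2-fold higher, against 3.51%. It was Cux2, a repressor known to be higher in female liver and to act on male-biased genes, with log2 signals of 8.40 in vehicle females, 8.01 in AAI females, 5.53 in vehicle males and 8.78 in AAI males. Vehicle males were the single low pool, the reverse of Cyp2d9. The ratio in males was 3.25 with this probe and 2.11 and 2.17 with 2 further probes, and in females -0.39, -0.64 and -0.71. In females 3 of 17 regulators were at least 2-fold lower with AAI, against 3.09% of all genes. They were Onecut1 (-1.31), Nr1i2 (-1.22) and Cebpb (-1.07). A second Onecut1 probe had -0.49 in females.

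Other parts of the growth hormone route were within 2-fold of corn oil by their brightest probes. Ghr, the growth hormone receptor, had ratios of -0.57 in females and -0.70 in males, and -1.12 in males with 1 of its 3 further probes. Another of these had 0.78 in females. Stat5a and Stat5b had ratios of 0.08 and -0.29 in males and of 0.00 and -0.13 in females. Their second probes had 0.02 and -0.27 in males and 0.24 and 0.39 in females. Bcl6, a repressor more abundant in male liver, had -0.98 in females and -0.76 in males. A dim second probe, well above background on 2 arrays, had -1.38 and -1.06. Hnf4a had -0.42 in females and -0.38 in males, and -0.96 and -0.27 with a second probe. The estrogen receptor gene Esr1 had 0.60 in males and -0.15 in females. Its further probes ran from -0.79 to 0.97 in males and from -0.78 to 0.49 in females, so its direction was not settled. The median over the 17 regulators was -0.15 in females and -0.18 in males.

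For each member past 2-fold in either sex, the genes with the most similar profile were found among 28234 genes above background on all 4 arrays. The measure was the Euclidean distance of log2 signals centred on each gene's mean over the 4 arrays. For Cyp2d34 the nearest were Nat8 (distance 0.54), Meig1 (0.64) and Cyp7b1 (0.76), a steroid hydroxylase, and Cyp2d9 came next in rank 4 (0.94). Cyp7b1 had log2 signals of 9.62, 9.93, 14.06 and 11.00 in vehicle females, AAI females, vehicle males and AAI males. For Cyp2d9 they were an intergenic noncoding RNA with no gene symbol (0.32), Nudt7 (0.37), which encodes a peroxisomal hydrolase of coenzyme A, and Vps72 (0.43). Cyp2d34 ranked 61 for Cyp2d9. For Cyp2d11 they were Gm10755 and 2 noncoding RNAs without symbols, all at 0.03 to 0.04, and for Cyp2d40 they were Wfdc15b (0.17), Klk1b3 (0.17) and Plin2 (0.18), which coats lipid droplets. These rankings rest on 4 arrays, and many genes have nearly the same profile at so few points.

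Transcripts of other tissues differed between the same arrays. All 8 skeletal muscle markers were at least 2-fold higher with AAI in both sexes, and their summed intensity went from 513 to 34281 in females and from 3906 to 293289 in males. In males, 5 of 5 adrenal cortex markers were at least 2-fold higher (3049 to 46423), with 3 of 5 of the adrenal medulla (3720 to 17824) and 4 of 5 of fat (4904 to 50799). In females 0 of 5, 0 of 5 and 1 of 5 of these were higher, with sums of 843 to 919, 2822 to 2789 and 3741 to 4159. Of 4 red cell markers, 3 were at least 2-fold lower in males (216867 to 55857) and none in females. No marker of kidney or intestine was past 2-fold with AAI in either sex. None of the 7 hepatocyte markers was past 2-fold in any comparison, with medians of 0.07 in females and -0.18 in males. In bulk liver RNA, fewer cells that express a gene and less RNA per cell cannot be told apart.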

How the data were processed

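Liver RNA pooled from 5 mice per group was measured on 4 arrays. Per the file headers and the submitters' processing notes, the authors quantified spots with Feature Extraction 10.5.1.1 on a design annotated to build mm9, and deposited for each array a linear processed intensity, background-subtracted and, on most arrays, corrected for trends across the slide. A deposited table over all 4 arrays repeats this intensity, equal within 1% on 100% of probes, a quantile-normalized intensity, used as an alternative, and detection calls, not used here. No counts exist, and 1 array per group limits the precision.

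Here control spots and outlier spots were left out, spots of a probe were averaged, and log2 processed intensity was quantile normalized over 56495 probes with values on all 4 arrays. Genes are the names given in the files, each read from its brightest probe, and every further Cyp2d probe is reported. Calls at 2-fold or more needed a probe marked well above background on 1 or both arrays of the comparison, with the lowest signal well above background as a bound on the other. No test was run. Of these steps, normalization and ratios were tested on simulated data, in which the changed probes were neither dim nor among the brightest. The choice of the brightest probe and the background correction were not covered. The genes named were all Cyp2d members, P450 electron partners, 17 regulators, up to 4 neighbours on each side, and the 3 genes nearest in profile to each member past 2-fold. Of these, 2 genes are not reported here by name. The family, these lists and the marker lists were chosen with earlier results of these data known. Alternatives covered scaling, background and trend correction, spot filters, the filter on dim probes, probe averaging and the fold threshold. Python 3.11.15, numpy 2.4.6, pandas 2.3.3, biopython 1.88, matplotlib 3.10.9, R 4.3.3 and limma 3.58.1 were used.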

Additional observations from a re-analysis of the deposited data

Results flagged for a closer look

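In 3 Cyp2d genes the log2 ratio of AAI to corn oil went in opposite directions in females and males by more than the median SD between probes of a gene. Cyp2d34 had 1.06 in females and -2.37 in males, Cyp2d9 had 0.26 and -2.32, and Cyp2d12 had 0.36 and -0.67. The female value of Cyp2d9 was barely above that SD of 0.25, and was 0.18 with arrays scaled to their 75th percentile. That of Cyp2d12 was 0.25 with normexp correction. The array of AAI females also differed from the others in trend correction. The difference was not tested, since each sex had 1 array per treatment, and the sexes were given different doses.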

How the results depend on the processing

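Single Cyp2d genes were read under 9 alternatives and further probes under 6. Of these 360 values, 344 moved by less than the SD between probes, and no ratio past 2-fold changed sign. The Cyp2d9 ratio in males stayed between -2.33 and -2.17 and that of Cyp2d34 was at most -2.14. Cyp2d40 in males moved to -0.16 with its probes averaged, and the count of lower members was then 3. No member was at least 2-fold higher in females with normexp correction (0) or without trend correction (0), and for 3-fold in place of 2-fold 0 members remained past it upwards in females and 2 downwards in males. At 1.5-fold, the count upwards was 2 in females, and 1 for males against females under AAI. The cause was not tested, except that a threshold changes a count by construction. With arrays scaled to their 75th percentile, the split of all genes past 2-fold was 745 lower and 623 higher in females, against 978 and 434, and 493 lower and 833 higher in males than in females under AAI, against 367 and 1024. No paired analysis was possible because each group had 1 array. Dim probes such as those of Cyp2d34 and the second one of Cyp2d40 depend most on the background correction.

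The background counts of all genes, lower and higher, are given for AAI in females, AAI in males, males against females under corn oil and the same under AAI. They were 978 and 434, 1402 and 1071, 574 and 1184, and 367 and 1024. With normexp correction they were 343 and 139, 643 and 554, 225 and 475, and 165 and 505. Without a filter on dim probes, those that moved by over 1.5 times were 1078 higher in females, 2240 and 1793 in males, 1253 and 1823 under corn oil, and 1111 lower under AAI. At 1.5-fold they were 3152 and 2473, 3360 and 3022, 2455 and 3090, and 1934 and 2521, and at 3-fold 225 and 127, 510 and 471, 155 and 378, and 112 and 441.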
